A study of Mus musculus with 6 samples.

Results

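The genes described here are 56 mouse genes of the interferon and double-stranded RNA response, listed by name for their known roles. They were measured in C2C12 cells, a mouse myoblast line that fuses into myotubes when serum is withdrawn. All arrays came from cells of this line that had been transfected with an siRNA and had then differentiated for 2 days. The si-lncMGPF group (3 arrays) received an siRNA that targets lncMGPF, a long noncoding RNA, and the si-NC group (3 arrays), whose label is not spelled out further, is what it is set against. The labels name no genetic alteration and no interferon or other stimulus, and do not say how many siRNA sequences were used. Nor do they say if each replicate was a culture of its own, so a p-value here reflects the spread among these 6 arrays, part of which may be technical. The level of lncMGPF itself was not analysed here. Total RNA was measured on 1-colour Agilent arrays with Cy3 as the dye.

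Of the 56 genes 52 had a named probe among the 20655 genes named on the array, and 42 were tested among 14261 tested genes. A probe was tested where all 3 arrays of either group read it well above background, and the brightest tested probe stood for the gene. The 10 genes with a probe that stayed below this limit were Tlr3, Irf7, Cmpk2, Ifi44, Oas1g, Oas3, Gbp7, Psmb8, Psmb9 and Tap1. Ifi203, Oas1b, Mx1 and Mx2 had no probe whose accession could be named. Of the 42 tested genes 38 were well above background on all 6 arrays.

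Double-stranded RNA in the cytosol, which viruses produce and which some siRNAs can mimic, is bound by RIG-I-like receptors, by the kinase PKR and by the oligoadenylate synthetases. The receptors signal through MAVS and TBK1 to IRF3 and IRF7, which switch on type I interferon. Secreted interferon then acts on neighbouring cells through JAK kinases and a complex that includes STAT2 and IRF9 and binds the interferon-stimulated response element (ISRE) in the promoters of its target genes. Interferon gamma acts mainly through a different element, GAS, and is the stronger inducer of the GBP and IRG families of GTPases. Transfected siRNA is therefore a setting in which these genes are commonly inspected, and both groups compared here were transfected.

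The promoters of 5 genes are shown, all chosen from the 12 tested genes whose arrays did not overlap between the groups in the comparison below. Of these 12 genes 8 had a promoter window in the RefSeq table, and the windows of 6 held a match to the interferon element while those of Xaf1 and Irf9 did not. Irgm2, Igtp and Gbp3, with a match, encode GTPases whose arrays were lower in si-lncMGPF, and Cxcl10, also with a match, was the single gene of the 42 with higher arrays in this way. Xaf1 is shown as the gene with the lowest p of the 42 and no match. Gbp3 had 2 windows, of which only the 1 shown held a match. The sequences are RefSeq windows of the GRCm38.p6 build from 250 bases before to 50 bases after the annotated start, 5′ to 3′ on the gene's strand. Capitals mark each match to the ISRE core GAAANNGAAA or its reverse complement TTTCNNTTTC. The Irgm2 window is chr11:58214727-58215026 (plus strand), the Igtp window chr11:58199306-58199605 (plus strand), the Gbp3 window chr3:142559794-142560093 (plus strand), the Cxcl10 window chr5:92348840-92349139 (minus strand) and the Xaf1 window chr11:72301379-72301678 (plus strand).
Irgm2: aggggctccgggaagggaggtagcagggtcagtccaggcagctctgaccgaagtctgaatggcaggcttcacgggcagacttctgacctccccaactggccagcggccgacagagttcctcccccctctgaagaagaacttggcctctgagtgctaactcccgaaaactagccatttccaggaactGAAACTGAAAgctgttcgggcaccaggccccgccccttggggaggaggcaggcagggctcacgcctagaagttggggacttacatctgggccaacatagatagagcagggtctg
Igtp: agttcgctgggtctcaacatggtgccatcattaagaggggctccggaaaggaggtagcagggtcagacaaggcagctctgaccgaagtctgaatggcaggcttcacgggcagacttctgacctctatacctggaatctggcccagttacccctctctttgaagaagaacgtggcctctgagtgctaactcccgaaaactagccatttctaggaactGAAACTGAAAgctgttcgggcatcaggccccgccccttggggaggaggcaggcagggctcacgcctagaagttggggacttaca
Gbp3: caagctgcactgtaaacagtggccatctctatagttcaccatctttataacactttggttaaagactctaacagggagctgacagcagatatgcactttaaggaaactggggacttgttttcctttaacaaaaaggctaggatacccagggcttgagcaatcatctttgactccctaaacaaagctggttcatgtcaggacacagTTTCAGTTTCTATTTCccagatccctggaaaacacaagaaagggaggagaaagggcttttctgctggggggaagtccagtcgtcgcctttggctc
Cxcl10: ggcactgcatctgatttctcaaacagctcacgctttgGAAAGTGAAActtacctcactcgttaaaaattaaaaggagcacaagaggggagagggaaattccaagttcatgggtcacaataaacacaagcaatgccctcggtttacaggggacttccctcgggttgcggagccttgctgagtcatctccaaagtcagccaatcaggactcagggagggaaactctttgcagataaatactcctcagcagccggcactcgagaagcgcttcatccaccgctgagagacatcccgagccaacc
Xaf1: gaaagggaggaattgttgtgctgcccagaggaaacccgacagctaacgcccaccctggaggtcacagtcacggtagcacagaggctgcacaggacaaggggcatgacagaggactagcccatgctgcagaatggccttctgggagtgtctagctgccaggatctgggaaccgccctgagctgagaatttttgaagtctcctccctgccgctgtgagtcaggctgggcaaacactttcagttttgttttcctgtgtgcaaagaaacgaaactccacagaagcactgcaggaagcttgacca
The match ended 54 bases before the start of Irgm2, 24 before that of Igtp and 203 before that of Cxcl10. In Gbp3 there were 2 overlapping matches on the reverse strand, the nearer ending 29 bases before the start. The Irgm2 and Igtp windows share an identical run of 61 bases, and the run that holds the ISRE match is 29 bases long in both. The Xaf1 window has no capitals because these letters do not occur in it.

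Over the RefSeq table, 1131 of 32851 windows (3.443%) held the ISRE core on either strand, which came to 3.993% of 27025 genes. Of the 40 listed genes with a window, 19 held it (47.5%). The GAS core TTCNNNGAA, which reads the same on both strands, lay in the windows of 11 of the 40 (27.5%), against 9.554% of all genes. Both cores were present for 6 genes, and in 1 member window they overlapped. These counts describe letters in a window of fixed length and say nothing of binding in these cells.

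The slide on which each array lay is known from the scan identifiers in the files. Slide 1 held si-lncMGPF replicate 1 with all 3 si-NC arrays, and slide 2 held si-lncMGPF replicates 2 and 3, so on slide 2 group and slide cannot be told apart. Over all tested probes si-lncMGPF replicate 1 had correlations of 0.987 and 0.988 with si-lncMGPF replicates 2 and 3 and of 0.993 to 0.995 with the si-NC arrays of its own slide. Replicates 2 and 3 had 0.994 with each other and 0.987 to 0.991 with the si-NC arrays. Replicate 1 was thus closer to the si-NC arrays of its slide than to the other si-lncMGPF arrays. Negative control spots read 20.1 to 21.8 intensity units net of background on slide 1 and 37.3 and 42.5 on slide 2, which bears on dim probes. The 75th percentile of the processed signal was 492 to 923 on the si-lncMGPF arrays and 688 to 931 on the si-NC arrays. Signals below are given as a percentage of that percentile on the same array, so 100% is the 75th percentile itself. Differences are log2 changes of si-lncMGPF minus si-NC.

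None of the 42 tested genes passed limma at an adjusted p below 0.05 (lowest adjusted p = 0.125, for Xaf1). Over all tested probes 0.105% passed (26 of 24657), so a count of 0 among 42 genes lies near that background. At an unadjusted p below 0.05, 8 of the 42 genes (19%) were lower and 1 (2.38%) was higher in si-lncMGPF, against 8.14% lower and 6.04% higher of all tested genes. The 3 si-lncMGPF arrays lay below the 3 si-NC arrays for 11 genes (26.2%) and above them for 1 (2.38%), against 12.6% and 9.7% of all tested genes. The 11 were Ifih1, Irf9, Ifi27, Xaf1, Oas2, Gbp3, Irgm1, Irgm2, Igtp, Iigp1 and Parp9, and the 1 was Cxcl10. Oas2 passed the filter through the si-NC arrays alone, which sets its direction, and without it 7 genes were lower at an unadjusted p below 0.05 and 10 were lower without overlap.

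The median log2 change of the 42 genes was -0.11, against 0.020 for all tested genes, and 29 of the 42 had a negative value (69.0%, against 46.0% of all tested genes). The values differed by array. Against the si-NC mean, the median of the 42 genes was -0.23 on si-lncMGPF replicate 1, 0.013 on replicate 2 and -0.021 on replicate 3. The same medians over all tested genes were -0.073, 0.054 and 0.059. Replicate 1 read below the si-NC mean for 36 of the 42 genes and below every si-NC array for 32 (76.2%), and 49.5% of all tested genes were also below every si-NC array there. It was the lowest of the 3 si-lncMGPF arrays for 29. On slide 2 the median was -0.00064 and 21 of the 42 were negative (50%), against a median of 0.057 and 40.2% negative over all tested genes. On replicate 1 the shares were 85.7% of the 42 and 60.7% of all tested genes. Under the 5 other scalings and background corrections the replicate 1 median was -0.28 to -0.22, and the slide 2 median was -0.031 to 0.078. The median of the 42 genes was thus below that of all tested genes on both slides, with the larger distance on replicate 1. The differences also varied with signal when all tested probes were split into 5 bins by mean signal. On replicate 1 the median difference was 0.050 in the dimmest bin and -0.11 in the brightest. On slide 2 it was -0.075 in the dimmest bin and 0.13 in the brightest.

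Without si-lncMGPF replicate 1, which leaves group and slide identical, 6 of the 42 genes (14.3%) passed the threshold, against 16.8% of all tested probes. They were Dhx58, Usp18 and Cxcl10 on the higher side and Xaf1, Gbp6 and Iigp1 on the lower. With array weights in the fit, which gave si-lncMGPF replicate 1 a weight of 0.125 and si-NC replicate 3 a weight of 9.39, 15 of the 42 (35.7%) passed, against 41.2% of all tested probes. Neither share was above its background.

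**Figure D1:**
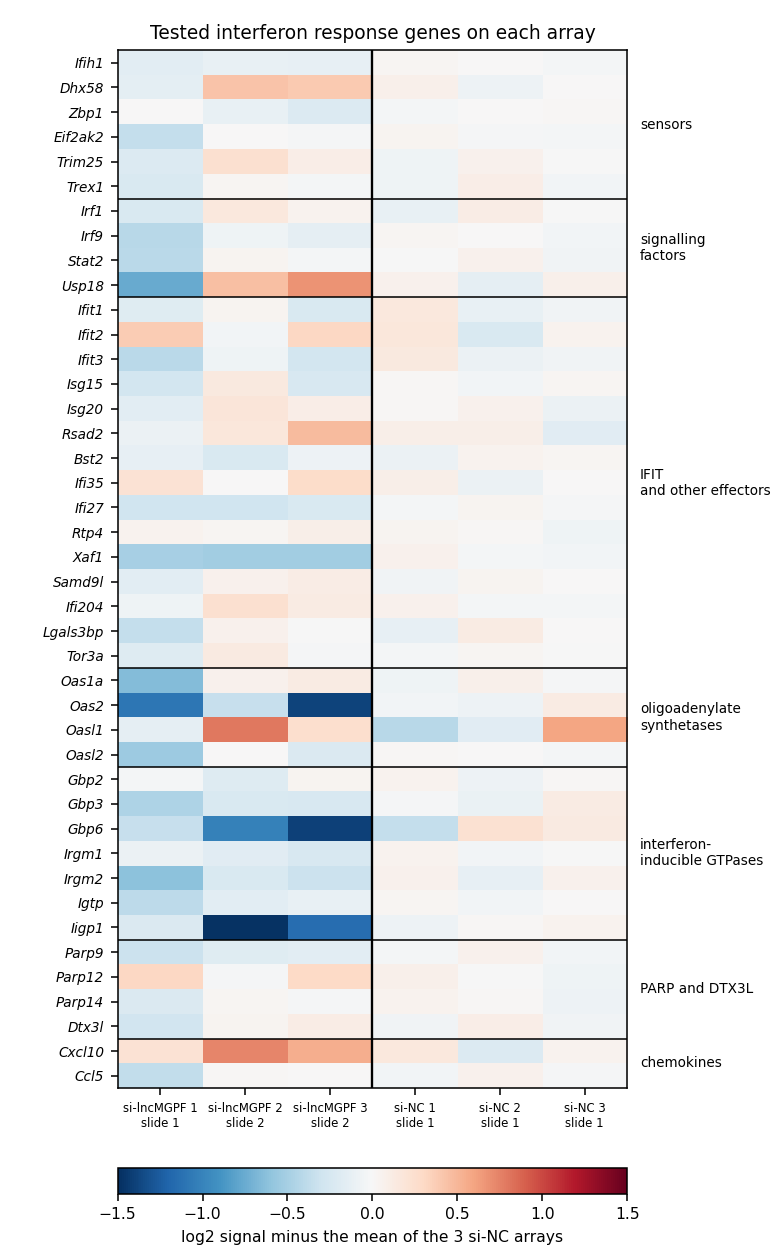
Log2 signal of the 42 tested genes (rows, grouped by role) on each array (columns, with its slide) minus the mean of the 3 si-NC arrays, blue for lower and red for higher. The column of si-lncMGPF replicate 1 is mostly pale blue, Xaf1 is blue on all 3 si-lncMGPF arrays, and Gbp6 and Iigp1 are darkest on replicates 2 and 3.

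The sensors include the RIG-I-like receptors, PKR and factors that regulate them, and 6 of 7 were tested. Ifih1, which encodes the receptor MDA5 for long double-stranded RNA, read 28.9, 29.7 and 29.5% in si-lncMGPF, against 32.8, 32.2 and 31.5% in si-NC. The groups did not overlap, but the gap was small (log2 change -0.13, SE 0.08, adjusted p = 0.438). Dhx58, which encodes LGP2, a partner of MDA5 and RIG-I that lacks their signalling domain, read 5.73, 8.50 and 8.30% in si-lncMGPF, against 6.67, 5.99 and 6.32% in si-NC. Its slide 2 arrays were above every si-NC array and its slide 1 array below them all, so the change of 0.23 (SE 0.17, adjusted p = 0.514) joins opposite differences of -0.14 for the slide 1 array and 0.41 for those of slide 2.

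Trim25, the ubiquitin ligase that acts on RIG-I, read 174, 239 and 216% in si-lncMGPF, against 193, 211 and 201% in si-NC. It had the same arrangement, with replicate 1 lowest and replicates 2 and 3 highest of the 6 arrays (log2 change 0.047, SE 0.13, adjusted p = 0.877). Eif2ak2, which encodes PKR, the kinase that halts translation on double-stranded RNA, was at 12.1, 15.5 and 15.2% in si-lncMGPF and 15.9, 15.2 and 15.2% in si-NC. Only replicate 1 stood off from the si-NC arrays there, at a difference of -0.35. Trex1, a DNA exonuclease that limits DNA sensing, was likewise lowest on replicate 1 (-0.23) and had 0.026 and -0.034 on replicates 2 and 3. Zbp1, a sensor of Z-form nucleic acids, averaged 8.39 ± 0.62% in si-lncMGPF and 8.996 ± 0.130% in si-NC (SD, n = 3 each), and it was the 1 sensor with no deficit on replicate 1 (0.0094). Tlr3, the endosomal receptor of double-stranded RNA, was well above background on 1 si-lncMGPF array and 1 si-NC array and was not tested.

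Of the signalling factors 4 of 5 were tested. Irf9, the DNA-binding subunit of the complex with STAT2, read 82.0, 105 and 100.01% in si-lncMGPF, against 112, 110.4 and 107% in si-NC. All 3 si-lncMGPF arrays were below all si-NC arrays, with the largest gap on replicate 1 (log2 change -0.21, SE 0.12, adjusted p = 0.409). Stat2, its partner, read 262, 356 and 338% in si-lncMGPF, against 343, 359.9 and 334% in si-NC. Here replicates 2 and 3 lay inside the si-NC range and only replicate 1 lay below it (-0.40). Irf1, a factor induced directly by interferon gamma, read 679, 887 and 827% in si-lncMGPF, against 737, 861 and 792% in si-NC, and its change was -0.0044 (95% interval -0.31 to 0.30).

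Usp18, the protease that removes ISG15 and damps the type I interferon receptor, gave the widest split between slides. It read 1.75, 4.06 and 4.73% in si-lncMGPF, against 3.10, 2.69 and 3.11% in si-NC. Replicate 1 was not well above background and lay -0.75 from the si-NC mean, while replicates 2 and 3 lay 0.46 and 0.68 above it. The fitted change of 0.13 (SE 0.36, adjusted p = 0.878) therefore describes none of the 3 arrays. Irf7, the factor that amplifies interferon production and is itself strongly induced by interferon, was not well above background on any array.

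The largest role group holds IFIT, ISG15 and other effectors, of which 15 of 18 were tested. Xaf1, which encodes a partner of the apoptosis inhibitor XIAP, had the lowest p of the 42 genes. It read 67.2, 66.0 and 65.8% in si-lncMGPF, against 98.9, 93.0 and 92.2% in si-NC. The groups were separated by far more than the spread within either, and the slide 1 and slide 2 differences were nearly equal at -0.49 and -0.52 (log2 change -0.51, SE 0.08, 1.43-fold lower, adjusted p = 0.125). A second Xaf1 probe, at 4.86, 5.14 and 4.83% in si-lncMGPF and 5.72, 5.87 and 5.86% in si-NC, also showed no overlap. Its log2 change was smaller (-0.24, SE 0.08, adjusted p = 0.260).

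Ifi27, a mitochondrial and nuclear-envelope protein induced by type I interferon, read 1585, 1589 and 1669% in si-lncMGPF, against 1912, 2005 and 1929% in si-NC. It was low on all 3 si-lncMGPF arrays to a like extent (log2 change -0.27, SE 0.08, adjusted p = 0.236). Its signal was far above the level of the negative control spots on both slides.

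None of the genes most used as signs of a type I interferon response passed the test. Isg15, the ubiquitin-like modifier, read 78.4, 104 and 80.1% in si-lncMGPF, against 95.4, 92.3 and 96.2% in si-NC (log2 change -0.12, 95% interval -0.43 to 0.19). A dim second Isg15 probe was lower without overlap (log2 change -0.43, SE 0.18, adjusted p = 0.319). It was well above background on 1 si-lncMGPF array and 3 si-NC arrays, so it passed the filter through si-NC alone, which favours a lower value in si-lncMGPF. Ifit1, which binds foreign RNA by its cap, averaged 20.03 ± 2.00% in si-lncMGPF and 21.8 ± 2.2% in si-NC, with a 95% interval of -0.41 to 0.16 for its log2 change. The related Ifit3 averaged 45.8 ± 5.5% in si-lncMGPF and 54.2 ± 4.8% in si-NC and was below the si-NC mean on all 3 si-lncMGPF arrays (-0.25, adjusted p = 0.367). Ifit2, in contrast, had a positive change of 0.22 (SE 0.16, adjusted p = 0.507), with 0.38 on replicate 1, the array on which Ifit3 had -0.40. Members of 1 family thus differed in opposite directions on the same array.

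Rsad2, which encodes viperin, was well above background on 1 si-lncMGPF array and all 3 si-NC arrays, at 2.10, 2.51 and 3.11% in si-lncMGPF and 2.38, 2.38 and 1.98% in si-NC. Its groups overlapped (log2 change 0.18, SE 0.16, adjusted p = 0.594). Isg20, an RNA exonuclease, Samd9l, a restriction factor, and Ifi204, a DNA-sensing protein of the IFI200 family, were each lower on replicate 1 and higher on replicates 2 and 3 than the si-NC mean, with overall changes of 0.042, 0.0069 and 0.10. Lgals3bp, a secreted lectin-binding protein, and Tor3a, a torsin ATPase, had their lowest array in si-lncMGPF replicate 1 at -0.36 and -0.19. Bst2, which encodes tetherin, averaged 58.2 ± 3.2% in si-lncMGPF and 64.2 ± 3.4% in si-NC and was below the si-NC mean on all 3 arrays (log2 change -0.14, adjusted p = 0.469). Ifi35, a partner of NMI, and Rtp4, a receptor transporter induced by interferon, were above the si-NC mean on all 3 arrays, with changes of 0.17 and 0.057. Cxcl10 was the third gene with that arrangement. Cmpk2, a mitochondrial nucleotide kinase, and Ifi44 were not well above background on any array.

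**Figure D2:**
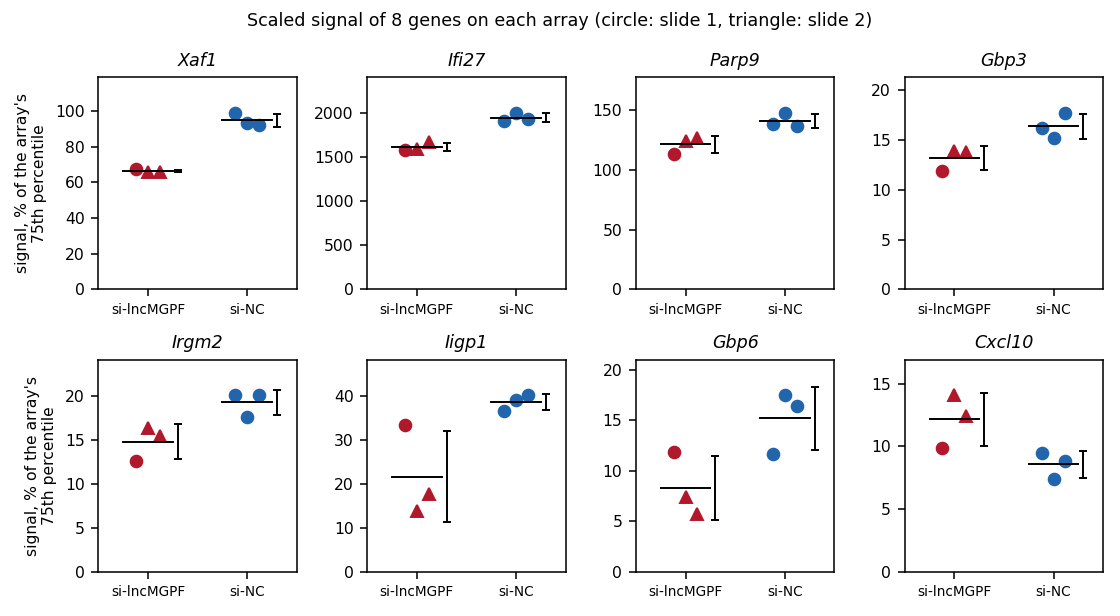
Signal of 8 genes on each array as a percentage of that array's 75th percentile, with the group mean (line) and SD (bar, n = 3 arrays). Circles are arrays of slide 1 and triangles of slide 2. The si-lncMGPF points lie below every si-NC point for Xaf1, Ifi27, Parp9, Gbp3, Irgm2 and Iigp1, and above them for Cxcl10. The circle of Gbp6 in si-lncMGPF (11.8%) lies beside the lowest si-NC point (11.7%).

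The oligoadenylate synthetases make the messenger that activates RNase L, and 4 of the 7 listed were tested, including the OAS-like genes Oasl1 and Oasl2. Oas2 read 1.11, 1.84 and 0.892% in si-lncMGPF, against 2.28, 2.22 and 2.54% in si-NC. It was well above background on all si-NC arrays and on none of the si-lncMGPF arrays, so its difference (log2 change -0.94, SE 0.26, adjusted p = 0.222) rests on signals at the limit of measurement and no fold is given. After normexp background correction with an offset of 50 the change had the opposite sign (0.13). Oas1a was well above background on 1 si-lncMGPF array and had -0.65 on replicate 1, against 0.064 and 0.12 on replicates 2 and 3.

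Oasl2 read 33.9, 49.7 and 42.5% in si-lncMGPF, against 50.05, 49.6 and 48.6% in si-NC. The si-NC arrays were tight, and the si-lncMGPF arrays ranged from well below them to inside their range (log2 change -0.25, SE 0.15, adjusted p = 0.425). Oasl1, which in mouse restrains translation of Irf7, varied about as much in si-lncMGPF (SD 0.47 on the log2 scale) as within si-NC (SD 0.53). Oas1g and Oas3 were not well above background on any array. The Oas1 copies and the GBP, IFIT and interferon alpha families are near-identical in stretches, so a probe may read more than 1 of them, and probe sequences were not used here.

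The interferon-inducible GTPases guard against vacuolar pathogens, and under the main scaling the changes of the tested members listed here all had 1 sign. Of the 10 listed, 7 were tested. By the brightest probe all 7 had a negative difference on slide 1 and on slide 2 under every scaling but normexp. After normexp with an offset of 50 Gbp2 (0.064) and Gbp3 (0.011) turned positive on slide 2, and with an offset of 16 Gbp2 did (0.030). With the mean over the probes of a gene the change of Irgm1 was positive (0.033). With the main scaling 6 were below the si-NC mean on each of the 3 si-lncMGPF arrays. Their median was -0.34, -0.23 and -0.25 on si-lncMGPF replicates 1, 2 and 3. None passed the threshold (adjusted p from 0.241 to 0.771), and the 7 genes share arrays and families, so they are not 7 independent readings.

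Irgm2, an IRG protein that regulates the others, read 12.6, 16.4 and 15.5% in si-lncMGPF, against 20.1, 17.7 and 20.1% in si-NC. All 3 si-lncMGPF arrays were below all si-NC arrays (log2 change -0.39, SE 0.13, 1.31-fold lower, adjusted p = 0.254). Igtp, also called IRGM3, whose promoter window shares the 61-base run with that of Irgm2, read 28.6, 33.7 and 34.6% in si-lncMGPF, against 38.4, 36.6 and 37.6% in si-NC. It was likewise lowest on replicate 1 (log2 change -0.22, SE 0.10, adjusted p = 0.351). Irgm1 read 115, 109 and 103% in si-lncMGPF, against 126, 119 and 121% in si-NC, with no overlap (log2 change -0.17, SE 0.09, adjusted p = 0.388). A second Irgm1 probe had a change of 0.23, with 0.53 on replicate 1, so the probes of this gene disagree in sign.

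Gbp3, a guanylate-binding protein, read 11.8, 13.9 and 13.8% in si-lncMGPF, against 16.1, 15.2 and 17.7% in si-NC. The groups did not overlap (log2 change -0.31, SE 0.11, 1.24-fold lower, adjusted p = 0.264). Gbp6 read 11.8, 7.44 and 5.69% in si-lncMGPF, against 11.7, 17.5 and 16.4% in si-NC. Its slide 2 arrays were below every si-NC array and its slide 1 array was not, giving -0.34 within slide 1 and -1.20 on slide 2 (SE of the fitted change of -0.91 was 0.29, adjusted p = 0.241). Gbp2 had the smallest change of the group (-0.062) and was 0.039 above the si-NC mean on replicate 3.

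Iigp1, an IRG effector that coats the vacuoles of parasites, read 33.3, 13.8 and 17.5% in si-lncMGPF, against 36.6, 39.1 and 40.2% in si-NC. The slide 1 array was just below the si-NC range and the slide 2 arrays far below it, so the change of -0.94 (SE 0.30, 1.93-fold lower, adjusted p = 0.249) combines a slide 1 difference of -0.21 with a slide 2 difference of -1.31. Gbp6 and Iigp1 thus departed from the rest of the list, in which replicate 1 was usually the lowest array. How far slide and how far the siRNA accounts for their larger deficit on slide 2 cannot be told apart. Gbp7 was not well above background on any array.

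**Figure D3:**
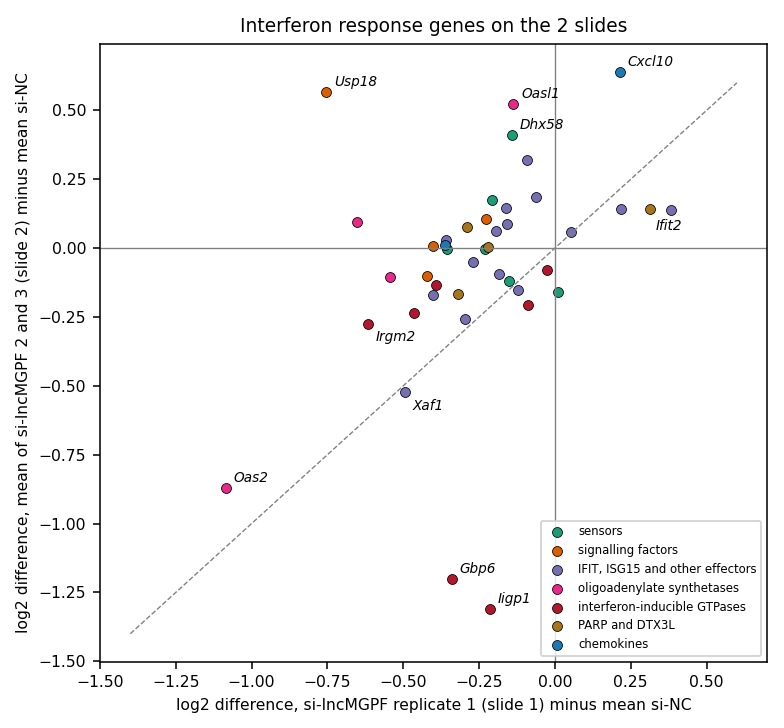
Log2 difference of each tested gene from the si-NC mean on si-lncMGPF replicate 1 (horizontal, slide 1) and on the mean of replicates 2 and 3 (vertical, slide 2), coloured by role, with the dashed line marking equal differences. Xaf1 lies on the line, Gbp6 and Iigp1 lie far below it, and Usp18 lies far above it with opposite signs on the slides.

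The 4 members of the group of PARP and DTX3L were all tested. Parp9, which pairs with the ubiquitin ligase DTX3L, read 113, 124 and 126% in si-lncMGPF, against 138, 147 and 137% in si-NC. It was lower on all 3 arrays without overlap (log2 change -0.22, SE 0.09, adjusted p = 0.313). Dtx3l, which lies head to head with Parp9 in the mouse genome, read 49.4, 62.2 and 65.1% in si-lncMGPF, against 58.2, 65.0 and 58.3% in si-NC, and only replicate 1 was below the si-NC range (log2 change -0.047, adjusted p = 0.875). Parp12, a mono-ADP-ribosyltransferase, was among the few genes high on replicate 1, at 44.9, 35.6 and 44.5% in si-lncMGPF and 38.2, 35.8 and 34.4% in si-NC (log2 change 0.20, SE 0.12, adjusted p = 0.436). Parp14, another ADP-ribosyltransferase, had a change of -0.072, of which -0.22 was on replicate 1.

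Cxcl10, the chemokine that draws CXCR3-bearing T cells, read 9.87, 14.1 and 12.5% in si-lncMGPF, against 9.47, 7.35 and 8.84% in si-NC. It was higher on all 3 si-lncMGPF arrays than on any si-NC array, narrowly so on replicate 1 (log2 change 0.50, SE 0.16, 1.41-fold higher, adjusted p = 0.252). The difference was 0.21 on slide 1 and 0.64 on slide 2. Ccl5, also called RANTES, read 32.4, 42.2 and 42.0% in si-lncMGPF, against 40.5, 43.6 and 41.1% in si-NC, and replicate 1 alone was below the si-NC range (log2 change -0.11, adjusted p = 0.671). The antigen processing genes Psmb8 and Psmb9, subunits of the immunoproteasome, and Tap1, a subunit of the peptide transporter, were not well above background on any array, so no difference was measurable for that role.

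**Figure D4:**
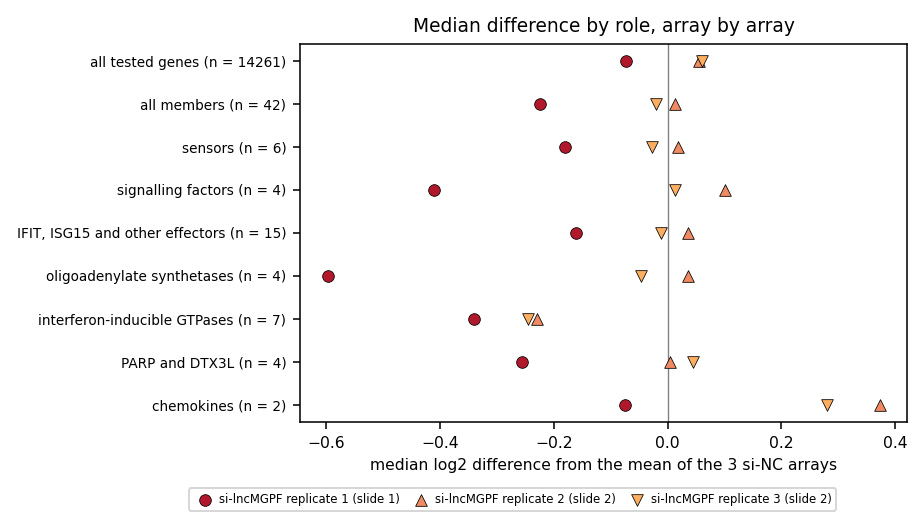
Median log2 difference from the si-NC mean on each si-lncMGPF array, for each role group, for all 42 genes and for all 14261 tested genes. With this scaling the GTPases are the only role group with a median under -0.2 on all 3 arrays, and for the signalling factors and the oligoadenylate synthetases only replicate 1 is far from 0.

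By direction, 12 genes read below the si-NC mean on replicate 1 and above it on replicates 2 and 3, and 14 were below it on all 3 arrays. The 12 were Dhx58, Trim25, Irf1, Usp18, Isg20, Rsad2, Samd9l, Ifi204, Oas1a, Oasl1, Dtx3l and Ccl5. The medians over all tested genes had the same arrangement as these 12 (-0.073, 0.054 and 0.059 on replicates 1, 2 and 3). The share of all tested genes with either arrangement was not counted, so neither count is a trait of these genes. Split by promoter, the 15 tested genes with an ISRE match in their window had a median change of -0.13 (-0.27 on replicate 1 and -0.095 on slide 2). The 14 tested genes with a window and no match had 0.0012 (-0.22 on replicate 1 and 0.098 on slide 2). On slide 2 a negative difference was seen for 11 of the 15 and for 4 of the 14, against 40.2% of all tested genes, and the difference between the classes was not tested. The GTPases Gbp2, Gbp3, Irgm1, Irgm2 and Igtp are 5 of the 11, so the split is not separate from that group.

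The spread between arrays set the limits of these comparisons. The median SD of the 42 genes was 0.19 among the si-lncMGPF arrays and 0.071 among the si-NC arrays on the log2 scale, and the median 95% interval of a change reached 0.29 to either side. Of the 7 genes with a second tested probe, Isg15, Isg20, Tor3a and Xaf1 had the same sign on both probes and Irgm1, Lgals3bp and Samd9l did not. On replicate 1 alone, 3 of the 7 pairs had the same sign, so the low values of that array were not shared by all probes of a gene. For Irgm1, Isg20, Lgals3bp and Tor3a the brighter probe, which stood for the gene, was negative there and the dimmer one positive. Over all tested probes, too, the median on replicate 1 was negative in the brightest bin (-0.11) and positive in the dimmest (0.050). The part of this in the low values of the members was not tested.

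Upstream of these genes, 19 of the 26 listed interferons, receptors and kinases were tested and none passed. Ifnb1 was not among the 19. At p below 0.05 before adjustment 1 was higher and 2 were lower, against 6.04% higher and 8.14% lower of all tested genes. The receptor chains of type I interferon, named for their role after their values were seen, were slightly lower on all 3 si-lncMGPF arrays, with changes of -0.18 for Ifnar1 (adjusted p = 0.457) and -0.16 for Ifnar2 (adjusted p = 0.361). Ifng, which encodes interferon gamma, read 3.97, 3.81 and 5.69% in si-lncMGPF, against 6.43, 7.27 and 6.70% in si-NC (log2 change -0.62, SE 0.17, adjusted p = 0.221). Ifna1 and Ifna11, of the interferon alpha family, had opposite changes of 0.57 and -0.79 on dim probes (adjusted p = 0.224 and 0.238). Ifng was well above background on 2 si-lncMGPF arrays and Ifna11 on 1, against 3 si-NC arrays for each. Both thus passed the filter through the si-NC arrays alone, which favours a lower value in si-lncMGPF.

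Of the RNA and DNA sensing pathway 30 of 34 genes were tested, with none past the threshold. At an unadjusted p below 0.05, 2 were higher, against 6.04% of all tested genes. Tbk1, the kinase that activates IRF3, read 72.4, 75.3 and 79.9% in si-lncMGPF, against 55.1, 48.6 and 59.4% in si-NC. It was higher on each array of either slide (log2 change 0.49, SE 0.11, adjusted p = 0.189). Pcbp2, which promotes turnover of MAVS, had 0.25 (SE 0.10, adjusted p = 0.284).

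Of 51 tested genes among 66 other interferon-stimulated genes none passed. At p below 0.05 before adjustment 2 were higher and 6 lower, against 6.04% higher and 8.14% lower of all tested genes. The median of the 51 genes, -0.068, had the same arrangement by array as the 42 genes. It was -0.15 on replicate 1 and 0.075 and -0.0038 on replicates 2 and 3. Batf2, Gbp5, Cd274 and Trim12c, lower on average in si-lncMGPF, and Tgtp1, higher, passed the filter through the si-NC arrays alone. Ccl7, a monocyte chemokine, read 37.0, 36.3 and 38.3% in si-lncMGPF, against 30.4, 26.7 and 28.4% in si-NC (log2 change 0.38, SE 0.09, adjusted p = 0.199). Slfn9, of the Schlafen family, read 166, 52.4 and 40.9% in si-lncMGPF, against 235, 202 and 205% in si-NC (log2 change -1.59, SE 0.49, adjusted p = 0.238). Like Gbp6 and Iigp1, it was far lower on slide 2 than on slide 1. Phf11b (-0.30) and Nt5c3, a nucleotidase (0.31), were the other genes of this list with the smallest p.

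Of the 20 tested genes of other antigen presentation components 16 had a positive change (80%, against 54.0% of all tested genes), with a median of 0.14. H2-Q7 and H2-T23, non-classical class I molecules, had 0.43 and 0.30 (adjusted p = 0.238 for each), and neither passed. The median of this list was -0.041 on replicate 1 and 0.16 and 0.21 on replicates 2 and 3, and 60% of its genes were negative on replicate 1, against 60.7% of all tested genes. Several of its genes, such as B2m and Calr, were very bright. Over all tested probes the brightest bin also had a positive median on slide 2 (0.13). The part of that shift in the positive changes of this list was not tested. Of the small RNA machinery, through which an siRNA acts, 13 of 14 genes were tested, 4 were positive, 9 were negative and none reached an unadjusted p below 0.05. All these lists have 0 calls at the rate of 0.105% that holds over all tested probes.

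The labelled cell line was checked by markers. All 10 muscle markers, Myod1 and Myog among them, were well enough above background to be tested, and their summed level was 12038 to 13294% in si-lncMGPF and 12081 to 13006% in si-NC. That sum is carried by the brightest probes, and the markers did not move alike. Myh8, a perinatal myosin heavy chain, read 29.2, 16.05 and 21.3% in si-lncMGPF, against 32.8, 35.3 and 36.1% in si-NC. It was lower without overlap, with -0.25 on slide 1 and -0.91 on slide 2 (log2 change -0.69, SE 0.21, adjusted p = 0.238). Actc1, the cardiac alpha-actin of immature muscle, was higher without overlap (log2 change 0.27, SE 0.10, adjusted p = 0.268). Acta1, the skeletal alpha-actin, had 0.23 on slide 1 and -0.57 on slide 2 (log2 change -0.30, adjusted p = 0.538). Of the 12 leukocyte markers 6 were tested. The summed level of those 6 was 209.6 to 307.9% in si-lncMGPF and 356.4 to 417.3% in si-NC, a gap that Itgam carried, since without it the sums were 97.1 to 111.5% in si-lncMGPF and 96.9 to 104.6% in si-NC. Itgam, an integrin chain of myeloid cells, read 211, 114 and 107% in si-lncMGPF, against 259, 305 and 317% in si-NC (log2 change -1.10, SE 0.26, adjusted p = 0.206). Dimmer Itgam probes had smaller changes of -0.25 and -0.40, with overlap. Cd14 (0.20) and Adgre1 (0.14) were higher and Coro1a (-0.26) was lower, each without overlap. Ptprc (-0.13) and Csf1r (-0.075) overlapped between the groups, while another Csf1r probe was higher without overlap (0.41). Cd52, Laptm5, Lyz2, Spi1 and Tyrobp were not tested and read at most 2.54%, and Cd68 had no named probe. Of the 7 endothelial markers 2 were tested. Pecam1, an adhesion molecule of endothelial cells and leukocytes, read 22.3, 44.0 and 48.9% in si-lncMGPF, against 19.7, 25.5 and 23.9% in si-NC. It was above the si-NC arrays on slide 2 alone, with -0.041 on slide 1 and 1.02 on slide 2 (log2 change 0.66, SE 0.30, adjusted p = 0.334). Kdr, the other, had a change of -0.12. The part of Itgam, Pecam1 and Myh8, which like Gbp6 and Iigp1 differed most on slide 2, in the lower GTPase signals was not tested. In bulk RNA fewer cells of a type cannot be told apart from less RNA per cell.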

How the data were processed

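The siRNA named in each label set the group. Deposited scanner tables give spot intensity on a linear scale, background-subtracted and detrended by Feature Extraction 11.0.1.1, per the file headers, and equalled the authors' series table at 44397 of 44397 spots per array. No source used here gives the authors' tests.

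Each processed signal was divided by its array's 75th percentile before log2 was taken, so a shift of most transcripts cannot be seen. Outlier spots (117 to 134 per array) were left out and no spot was saturated. Accessions were matched to RefSeq names for 27228 of 39429 probes, and 12201 stayed unnamed. The array was designed on another build (mm9), so probe positions are not given. The main model was a 2-group limma fit (version 3.58.1, R 4.3.3; lmFit, then eBayes), with p-values adjusted by Benjamini-Hochberg over 24657 tested probes. Intervals are 95%. The fit was run on simulated data whose noise was independent between arrays and equal in both groups. These arrays differ from that in slide and in spread, so the run does not cover this design. With 3 arrays a group, precision is limited throughout.

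The members, lists and tests were chosen with earlier results of these data known. Values per array are given for each role group's genes whose groups do not overlap, its 2 genes with the smallest p and its brightest gene, with others added for their role. For other lists up to 4 genes with an unadjusted p below 0.05 are named. Alternatives were 20 planned settings (scaling, normexp background correction on median spot signals, filters, variance model, array weights, a block for replicate number or slide, the series table, mean of probes, each array left out) and cyclic loess, added after seeing the data.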

Additional observations from a re-analysis of the deposited data

How the results depend on the processing

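The count of member genes past the adjusted threshold was 0 in limma under every setting except 2: array weights gave 15, and leaving out 1 array gave 0 to 6, the 6 arising without si-lncMGPF replicate 1, where group and slide coincide. The median change of the members was negative under every setting, from -0.23 with the slide 1 arrays alone or slide as a fixed block to -0.00064 without si-lncMGPF replicate 1. The median over all tested genes moved with the setting too. It was -0.072 with the slide 1 arrays alone or slide as a fixed block, and 0.057 without si-lncMGPF replicate 1. With normexp at an offset of 50 the members had -0.0093 and all tested genes 0.085. For all tested probes the count of 26 became 6 with quantile normalization, 10 with normexp at an offset of 50, 13 with normexp at an offset of 16, 10 with slide as a fixed block, 1 with the slide 1 arrays alone, 10148 with array weights and 0 to 4128 when 1 array was left out (4128 without si-lncMGPF replicate 1, 4 without si-lncMGPF replicate 2). It was 0 with no filter on dim probes (5277 at an unadjusted p below 0.05). It was also 0 without si-lncMGPF replicate 3 or si-NC replicate 1, 2 or 3 (2225, 2687, 1914 and 1874 at an unadjusted p below 0.05). With the replicate block, limma called 0 probes (4431 at an unadjusted p below 0.05) and 0 members. Arrays of the same number had correlations of 0.185, 0.318 and -0.058 in their deviations, so they share only a number. Of the 20 members named by rule 7 took the other sign in at least 1 setting, none past the adjusted threshold there (lowest adjusted p = 0.17). Of the 7 Oas2 alone had an unadjusted p below 0.05 in the main setting, and it was 0.131 with an offset of 50 and 0.0253 with an offset of 16. The others were Dhx58 (-0.142) and Trim25 (-0.207) with slide as a fixed block, Irgm1 (0.0332) with the mean over probes, and Irf1 (0.107), Stat2 (0.00637) and Ccl5 (0.0131) without si-lncMGPF replicate 1. The causes were not tested. With slide as a random block 14 members had an unadjusted p below 0.05 in limma, all lower, against 3960 of 24657 tested probes in either direction. The probes lower in that setting were not counted apart, so the 14 have no background of the same kind. The median over all tested genes was itself negative there (-0.049, against -0.18 for the members). With slide as a fixed block the group effect rests on 1 si-lncMGPF array, while the random block also draws on the slide 2 arrays. Dim probes such as those of Oas2, Usp18, Rsad2 and Oas1a are limited by background.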
